A study of Mus musculus with 6 samples.

Results

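The Hox clusters of the mouse carry, between their protein-coding genes, the hairpins of 2 small microRNA (miRNA) families, miR-10 and miR-196. Their levels were measured here in bone marrow-derived macrophages of 2 genotypes, the ApoE knockout (EKO) and the wild type (WT). The members were taken by name from the reference list of the count tables: mmu-miR-10a-5p, mmu-miR-10a-3p, mmu-miR-10b-5p, mmu-miR-10b-3p, mmu-miR-196a-5p and mmu-miR-196b-5p. Of these 6, 5 had reads and made up 5 of the 911 mature miRNA entries seen in any library, and 1, mmu-miR-10b-3p, had none. All 5 passed the filter on low counts, which left 575 entries for testing.

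The series profiled small RNA from 3 EKO and 3 WT libraries, stated to be biological replicates. Both groups were macrophages from male mice aged 6 to 12 weeks, whose marrow cells were given macrophage colony-stimulating factor (M-CSF) at 25 ng/mL every 2 days over 6 days. The genotype labels, ApoE-KO and WT, name neither the allele nor the strain background. Macrophages secrete ApoE, which carries lipids. Its transcript is not among these miRNA counts, so the genotype labels were not checked.

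A miRNA hairpin is cut into a 5p and a 3p arm, and the arm that is kept in the Argonaute protein pairs with target transcripts mainly through its seed, bases 2 to 8. In miR-10 and miR-196 the kept arm is mostly 5p. The hairpins of both families are transcribed with the Hox genes around them, and several Hox transcripts are known targets: miR-196 directs cleavage of Hoxb8 mRNA in mouse embryos, and miR-10b represses HOXD10 in human breast cancer cells. In blood formation miR-196b is known for its high level in progenitor cells and in leukaemias with rearranged MLL, and miR-10a in human endothelium restrains NF-kB signalling through MAP3K7 and BTRC.

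The sequences below, from RefSeq on GRCm38.p6 and written 5′ to 3′ with the seed in capitals, show how the members differ, since reads of near-identical miRNAs can be assigned to either.
mmu-miR-10a-5p: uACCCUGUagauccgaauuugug
mmu-miR-10b-5p: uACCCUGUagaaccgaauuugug
mmu-miR-10a-3p: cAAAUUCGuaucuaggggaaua
mmu-miR-10b-3p: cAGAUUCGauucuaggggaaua
mmu-miR-196a-5p: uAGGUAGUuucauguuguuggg
mmu-miR-196b-5p: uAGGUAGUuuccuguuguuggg

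The 5p arms of miR-10a and miR-10b shared their seed and differed by 1 base of 23, written U12A with miR-10a-5p first and positions counted from 1 at the 5′ end. The pair miR-196a-5p and miR-196b-5p likewise shared a seed and differed by 1 base of 22, A12C with miR-196a-5p first. The 3p arms of miR-10 differed at 3 bases, A3G, U9A and A10U with miR-10a-3p first, of which the first lies in the seed, so that their seeds are not the same. Of the 937 miRNA names in the tables, 768 had a RefSeq sequence. No other name among them had the seed of the miR-10 or of the miR-196 5p arms. The miR-196 seed stood 1 base further in, at bases 3 to 9, in 9 of them: the let-7a, let-7b, let-7c, let-7d, let-7f, let-7g and let-7i 5p arms, miR-98-5p and miR-1961.

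In that assembly miR-10a-5p lies at chr11:96317186-96317208 on the plus strand, between Hoxb5 and Hoxb4 and within the RefSeq span of Hoxb3, where GENCODE M21 has no other gene. The miR-10b-5p arm lies at chr2:74726074-74726096, plus strand, in introns of Hoxd3 and Hoxd4. Mature miR-196a-5p comes from 2 hairpins, so that its count cannot be assigned to a cluster. They place it at chr11:96265187-96265208, between Hoxb13 and Hoxb9, and at chr15:102973365-102973386, between Hoxc10 and Hoxc9 and in an intron of the GENCODE gene Hoxc5, both on the plus strand. The miR-196b-5p arm lies at chr6:52230129-52230150, minus strand, between Hoxa9 and Hoxa10 in RefSeq and overlapping an exon of Hoxa9 in GENCODE. The count tables carry no coordinates.

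Reads assigned to mature miRNAs totalled 34651511 to 39532544 per EKO library and 38440290 to 41331604 per WT library. Levels are given as CPM, counts scaled so that every library has the same total. Ligation and amplification in small RNA libraries favour some sequences, so the order of levels between miRNAs is that of the reads, not of molecules. Entries with at least 1 read numbered 543 to 591 in EKO and 664 to 698 in WT libraries, with no overlap between the groups. Entries seen in at most 3 libraries had, where they reached 5 reads, a median of 67, 50 and 49 reads in EKO replicates 1, 2 and 3 and of 34.5, 34 and 27 in WT replicates 1, 2 and 3. These medians, too, did not overlap, and were higher in EKO. They were taken over different entries, 35, 50 and 54 in EKO replicates 1, 2 and 3 and 108, 102 and 121 in WT replicates 1, 2 and 3. Reads that are copies of 1 captured molecule could not be told from separate molecules, since the barcode counts were 0.

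Reads of the family came almost wholly from miR-10a-5p, which lay higher in all EKO than in all WT libraries. It stood at 21065, 19180 and 15849 CPM in EKO replicates 1, 2 and 3, and at 13565, 13644 and 10855 CPM in WT replicates 1, 2 and 3. The gap between the lowest EKO and the highest WT library was smaller than the range within either genotype. The mean was 18698 ± 2642 CPM in EKO and 12688 ± 1588 CPM in WT (SD, n = 3 each), 1.47-fold, and the log2 fold change was 0.59 ± 0.17 (SE). This did not pass the test across all miRNAs (adjusted p = 0.0930, edgeR quasi-likelihood test with Benjamini-Hochberg adjustment). By abundance miR-10a-5p ranked 9 to 12 in the EKO libraries and 12 to 14 in the WT libraries. It took 1.58% to 2.11% of EKO reads and 1.09% to 1.36% of WT reads. In such bulk libraries, fewer cells of a type and less RNA per cell cannot be told apart.

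**Figure D1:**
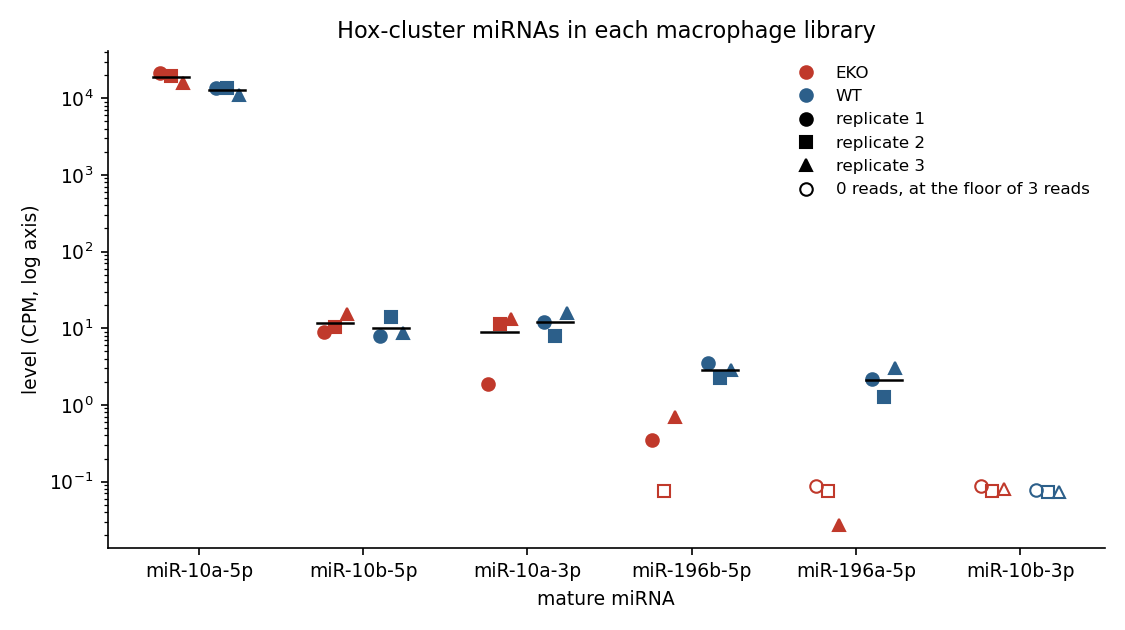
Level of each member (CPM, log axis) in the 3 EKO and 3 WT libraries, with symbols for replicates, bars at group means where all 3 libraries had reads, and open symbols at the limit of 3 reads for libraries with none. The miR-10a-5p points of EKO lie above those of WT, and both miR-196 arms lie lower in EKO, with 0 reads of miR-196a-5p in 2 EKO libraries.

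The paralogue miR-10b-5p was far rarer, and its means differed between genotypes by less than the spread of replicates. It had 8.92, 10.5 and 15.3 CPM in EKO replicates 1, 2 and 3, against 8.01, 14.0 and 8.55 CPM in WT replicates 1, 2 and 3. The groups overlapped, with the highest library in EKO and the lowest in WT. The means were 11.6 ± 3.34 CPM in EKO and 10.2 ± 3.30 CPM in WT (SD, n = 3 each). Its log2 fold change of 0.19 ± 0.42 (SE) did not pass (edgeR adjusted p = 0.908), and was -0.03 without EKO replicate 3.

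Reads that matched several references had been divided among them in the deposited counts, which do not name the references that shared them. For miR-10b-5p the divided count was 65.9% to 76.8% of its total reads in EKO and 64.5% to 79.1% in WT libraries, while for miR-10a-5p it was above 99.9% in all 6. In EKO replicate 1, 469 total reads of miR-10b-5p became 309, and 730115 of miR-10a-5p became 729947. In WT replicate 1, 477 became 308 and 521619 became 521440. The levels and ratios of miR-10b-5p given here include its part of such shared reads, so they are not of reads unique to it. Reads of miR-10b-5p amounted to 0.0423%, 0.0546% and 0.0966% of those of miR-10a-5p in EKO replicates 1, 2 and 3, and to 0.0591%, 0.102% and 0.0788% in the WT replicates. EKO replicate 1, highest in miR-10a-5p, was lowest of the 6 in this share. How many of these reads are miR-10a-5p reads with a miscalled base was not tested. The log2 ratio of miR-10a-5p to miR-10b-5p had a mean of 10.68 (SD 0.61, n = 3) in EKO and 10.32 (SD 0.40, n = 3) in WT. The two-sided exact permutation p was 0.4, and 0.1 is the smallest that this design allows.

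The 3p arm of miR-10a, the strand mostly discarded, was rare, and its levels overlapped between genotypes. Its level was 1.85, 11.4 and 13.4 CPM in EKO replicates 1, 2 and 3, against 12.1, 8.03 and 15.9 CPM in WT replicates 1, 2 and 3. EKO replicate 1 stood apart from the other 5 libraries, with 64 reads of 4 distinct sequences, where the others had 332 to 652 reads of 18 to 28 sequences. The fitted log2 change was -0.43 ± 0.67 (SE, edgeR adjusted p = 0.838), and 0.05 without EKO replicate 1. Reads of miR-10a-5p outnumbered those of miR-10a-3p by 11405, 1678 and 1185 to 1 in the EKO replicates and by 1121, 1699 and 681 to 1 in the WT replicates. The log2 arm ratio had a mean of 11.46 (SD 1.75, n = 3) in EKO and 10.09 (SD 0.66, n = 3) in WT. The difference was 1.37 (exact permutation p = 0.3), and 0.37 without EKO replicate 1.

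No read was assigned to mmu-miR-10b-3p in any library, which allows up to 0.0759 to 0.0866 CPM in the EKO libraries and 0.0726 to 0.0780 CPM in the WT libraries (3 reads). The 5p arm of miR-10b thus had 103 to 189 times the reads that this limit allows its 3p arm in EKO and 103 to 193 times in WT. With the arm ratio of miR-10a in the same library, the miR-10b-5p reads would be matched by 0.0271 to 0.479 reads of the 3p arm in EKO and 0.275 to 0.514 in WT. A 3p arm of miR-10b at that ratio was not detectable at this depth. The log2 arm ratio with 0.5 reads added, set by the 5p count alone, had a mean of 9.71 (SD 0.44, n = 3) in EKO and 9.63 (SD 0.48, n = 3) in WT, with an exact permutation p of 0.9.

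**Figure D2:**
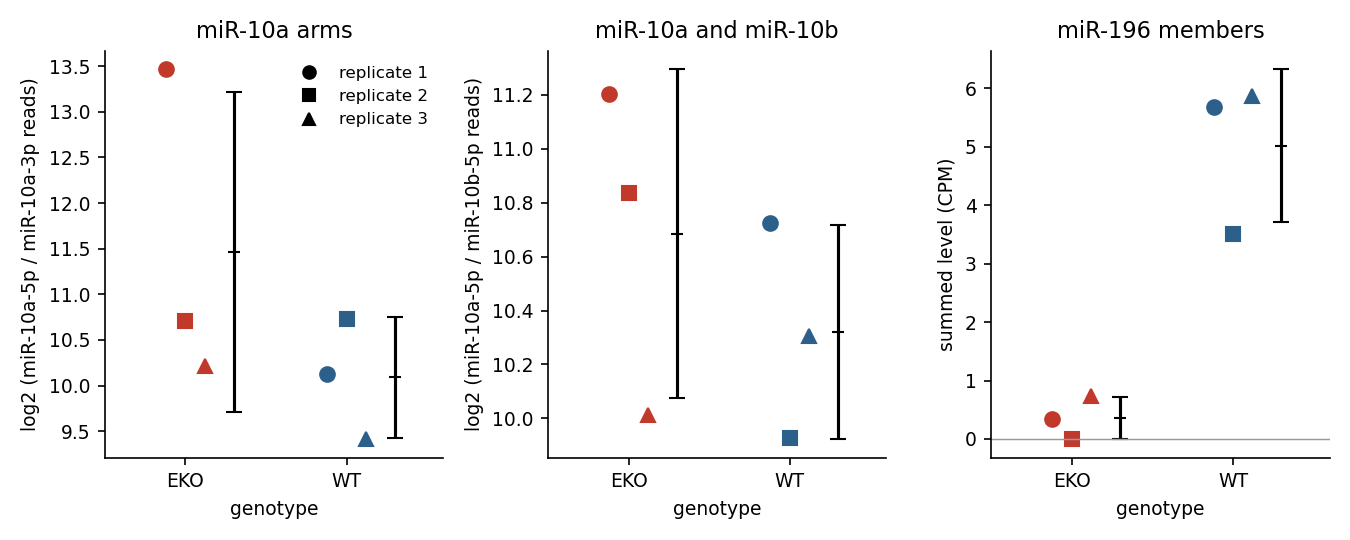
Log2 ratio of miR-10a-5p to miR-10a-3p reads, log2 ratio of miR-10a-5p to miR-10b-5p reads, and summed miR-196 level (CPM) in each EKO and WT library, with mean and SD beside the points (n = 3 each). EKO replicate 1 stands apart in the arm ratio at 13.47, the miR-10a to miR-10b ratios overlap between genotypes, and the miR-196 sums of EKO lie below those of WT.

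Both miR-196 arms were rare in WT libraries and rarer or without reads in EKO libraries. Their summed level was 0.346, 0 and 0.728 CPM in EKO replicates 1, 2 and 3, against 5.67, 3.51 and 5.87 CPM in WT replicates 1, 2 and 3. The difference of -4.66 CPM had an exact permutation p of 0.1. Every WT library had reads of both arms, and EKO replicate 3 was the only EKO library of which this was true.

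Reads of mmu-miR-196a-5p numbered 0, 0 and 1 in EKO replicates 1, 2 and 3, against 83, 52 and 123 in WT replicates 1, 2 and 3. In CPM these are 0, 0 and 0.0270 in EKO and 2.16, 1.26 and 3.01 in WT. Pooled over each group, the EKO level was 0.00420 of the WT level (95% exact binomial interval 0.000106 to 0.0236, for counting error only). The WT reads were of 7, 5 and 9 distinct sequences. The fitted log2 fold change of -7.43 ± 1.89 (SE) depends on the small count added by the fit and did not pass (adjusted p = 0.0786, edgeR).

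Counts of mmu-miR-196b-5p were 12, 0 and 26 reads in EKO replicates 1, 2 and 3, against 135, 93 and 117 reads in WT replicates 1, 2 and 3. Its levels of 0.346, 0 and 0.701 CPM in EKO all lay below the 3.51, 2.25 and 2.86 CPM of WT. The means were 0.349 ± 0.351 CPM in EKO and 2.87 ± 0.631 CPM in WT (SD, n = 3 each). The reads were of 1, 0 and 2 distinct sequences in the EKO libraries and of 10, 12 and 14 in the WT libraries. The fitted log2 change was -3.0 ± 1.66 (SE, edgeR adjusted p = 0.391), and ran from -3.93 without EKO replicate 3 to -2.41 without EKO replicate 2. Both miR-196 arms passed the filter on low counts through their WT reads. Within WT, miR-196b-5p was above miR-196a-5p in replicates 1 and 2 and below it in replicate 3, so their order was not beyond the spread of replicates.

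Both miR-196 arms were lower in every EKO library than in any WT library, and so was the number of entries detected. The median read number per rare entry was larger in EKO, over different entries. EKO replicates 1, 2 and 3 had 543, 577 and 591 entries, beside 0.346, 0 and 0.728 CPM of the miR-196 arms. WT replicates 1, 2 and 3 had 684, 664 and 698 entries, beside 5.67, 3.51 and 5.87 CPM. Of all 911 entries, 19 (2.09%) had reads in all 3 WT libraries and at most 1 read over the EKO libraries, among them miR-196a-5p. The opposite pattern, reads in all 3 EKO libraries and at most 1 over the WT libraries, held for 2 (0.22%). The part of capture and detection in the miR-196 difference was not tested.

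**Figure D3:**
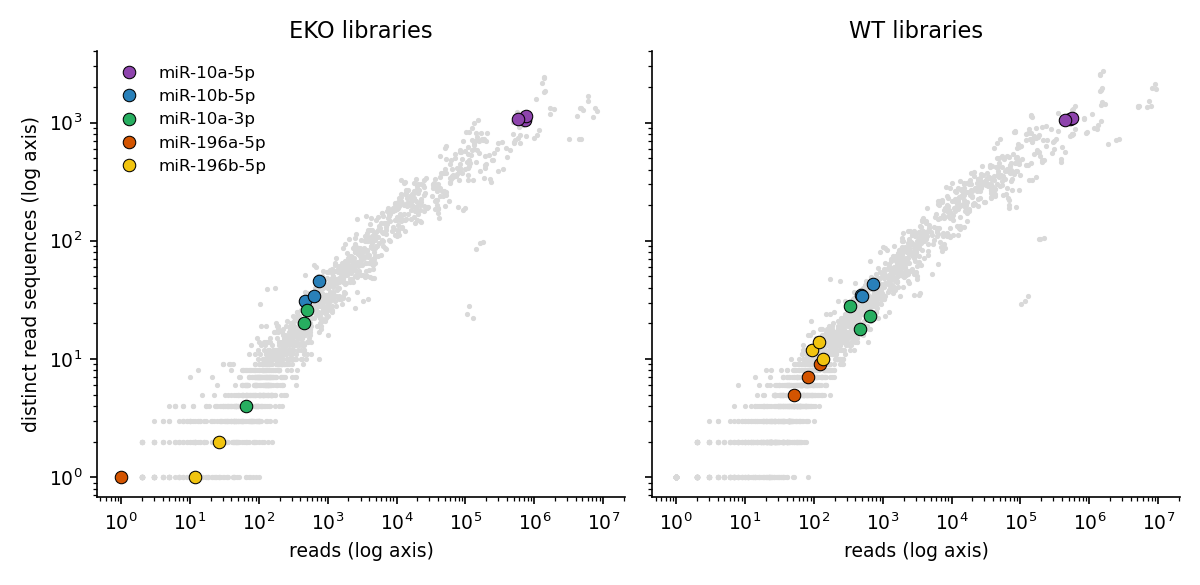
Distinct read sequences against reads per miRNA entry (both log axes) in the 3 EKO libraries on the left and the 3 WT libraries on the right, with members in colour and all other entries in grey. The miR-196 arms rest on 1 or 2 distinct sequences where seen in EKO and on 5 to 14 in WT, and miR-10a-5p on 1046 to 1140 in EKO and 1058 to 1092 in WT.

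Across the members, the order of levels was miR-10a-5p, then miR-10b-5p and miR-10a-3p, whose ranges overlapped in both genotypes, then the miR-196 arms, then miR-10b-3p. Groups did not overlap for 3 of the 5 members with reads. These were miR-10a-5p, higher in EKO as were 11.8% of all 575 entries tested, and the 2 miR-196 arms, lower in EKO as were 17.7% of all entries. The summed level of the 6 members averaged 18719 CPM (SD 2633, n = 3) in EKO and 12715 CPM (SD 1585, n = 3) in WT, with an exact permutation p of 0.1. In that sum miR-10a-5p made up 99.8% to 99.9% in EKO and 99.7% to 99.8% in WT.

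None of the 5 members tested passed an adjusted p of 0.05 in the edgeR test, where 0% of the 575 entries did. Before adjustment, 123 of the 575 were past 0.05 in edgeR, among them miR-10a-5p and miR-196a-5p. The median log2 fold change was -0.16 over all 575 entries, so that of miR-10a-5p lay above and those of the miR-196 arms below the middle of all miRNAs. With DESeq2, 2 of the 5 members passed, miR-10a-5p higher (adjusted p = 0.00676) and miR-196a-5p lower (adjusted p = 0.000957), where 16% of all entries did. With limma-voom miR-196a-5p passed (adjusted p = 0.0441, 5.57% of all entries). In both fits and in the edgeR test above, miR-196a-5p was among the entries tested only through its WT reads. These calls and its unadjusted edgeR p thus add nothing to its read counts. Without a low-count filter its edgeR adjusted p was 0.164. With edgeR miR-10a-5p passed when no low-count filter was used (adjusted p = 0.0130, 5.71% of 910 entries), among entries averaging at least 10 CPM (adjusted p = 0.0284, 23.5% of 251), and without EKO replicate 3 (adjusted p = 0.0401, 7.1% of 634). Among these alternatives the call of miR-10a-5p thus depended on the tool, the filter and 1 library, and that of miR-196a-5p on the tool. Over the alternatives without a replicate block the adjusted p (edgeR, DESeq2 or limma-voom) ranged from 0.00676 to 0.285 for miR-10a-5p. For miR-196a-5p it ranged from 0.000957 to 0.285 in the same tools. The direction of each was the same in every fit run that tested it, but all fits used these same libraries. For miR-196a-5p, with 0, 0 and 1 reads in the EKO replicates, the direction was fixed by the counts.

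**Figure D4:**
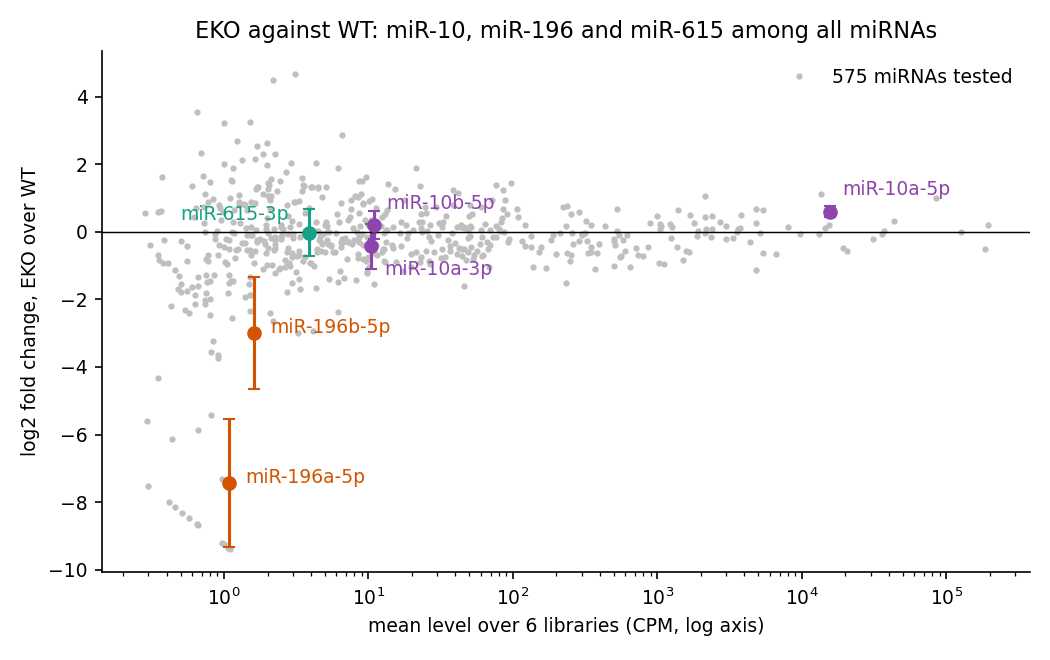
Log2 fold change, EKO over WT, against mean level over the 6 libraries (CPM, log axis) for the 575 miRNAs tested in grey, with miR-10, miR-196 and miR-615 in colour and SE bars. At high level miR-10a-5p lies above 0 at 0.59, miR-10b-5p, miR-10a-3p and miR-615-3p lie within 1 SE of 0, and the miR-196 arms lie below 0 among rare miRNAs.

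The Hox clusters hold further mature arms, of which 1 of 5 listed had reads. This was miR-615-3p, from a hairpin within an intron of Hoxc5 on chromosome 15. It had 2.31, 3.97 and 5.23 CPM in EKO replicates 1, 2 and 3, against 2.71, 4.57 and 4.57 CPM in WT replicates 1, 2 and 3. The groups overlapped, and the log2 change of -0.03 ± 0.70 (SE) did not pass (edgeR adjusted p = 0.995). The arms miR-615-5p, miR-196a-1-3p, miR-196a-2-3p and miR-196b-3p had no reads in any library.

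The miR-99 and miR-100 family is related to miR-10 in sequence but not in seed.
mmu-miR-99a-5p: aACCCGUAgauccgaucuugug
mmu-miR-100-5p: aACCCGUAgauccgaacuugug

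Shown for comparison with miR-10a-5p, with which miR-99a-5p shared a run of 10 bases and miR-100-5p one of 11, these 2 arms differ by 1 base as the miR-10 pair does (U16A with miR-99a-5p first). None of the 3 relatives passed in edgeR. The abundant miR-99a-5p stood at 12713 ± 1554 CPM in EKO libraries and 13542 ± 269 CPM in WT libraries, and miR-99b-5p at 2714 ± 507 CPM in EKO libraries and 3235 ± 233 CPM in WT libraries (SD, n = 3 each). Log2 fold changes were -0.07 ± 0.10 for miR-99a-5p, -0.22 ± 0.18 for miR-99b-5p and 0.05 ± 0.19 for miR-100-5p (SE, edgeR adjusted p = 0.823, 0.626 and 0.963), and that of miR-99a-5p was 0.02 with DESeq2 size factors. Their summed level was 14322 to 16433 CPM in EKO and 16745 to 16923 CPM in WT, without overlap (exact permutation p = 0.1). In EKO replicate 1, where miR-10a-5p was highest of the 6 libraries, miR-99a-5p was lowest at 11086 CPM. The rarer arm of this pair, miR-100-5p, reached 0.492% to 0.606% of miR-99a-5p in EKO and 0.453% to 0.551% in WT, above every share of miR-10b-5p in miR-10a-5p.

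The profile of miR-10a-5p over the 6 libraries was nearest to those of miR-674-3p, miR-671-3p and miR-1964-3p among 250 other entries averaging at least 10 CPM. Their root-mean-square differences from it were 0.0623, 0.0637 and 0.0713 on the log2(CPM + 1) scale, each profile centred on its mean, against a median of 0.470 over the 250. The nearest, miR-674-3p, stood at 6830, 5769 and 4932 CPM in EKO replicates 1, 2 and 3, against 3829, 4018 and 3299 CPM in WT replicates 1, 2 and 3. Log2 fold changes were 0.69 ± 0.17 for miR-674-3p, 0.68 ± 0.19 for miR-671-3p and 0.65 ± 0.19 for miR-1964-3p (SE), none past the threshold (edgeR adjusted p = 0.0786, 0.0851 and 0.104). Their likeness to the change of miR-10a-5p follows from the choice by profile over these same libraries and adds nothing to it. For miR-10b-5p the nearest profiles were those of miR-3970, miR-148a-5p and miR-192-5p, at larger differences of 0.214, 0.232 and 0.239 (median 0.482).

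**Figure D5:**
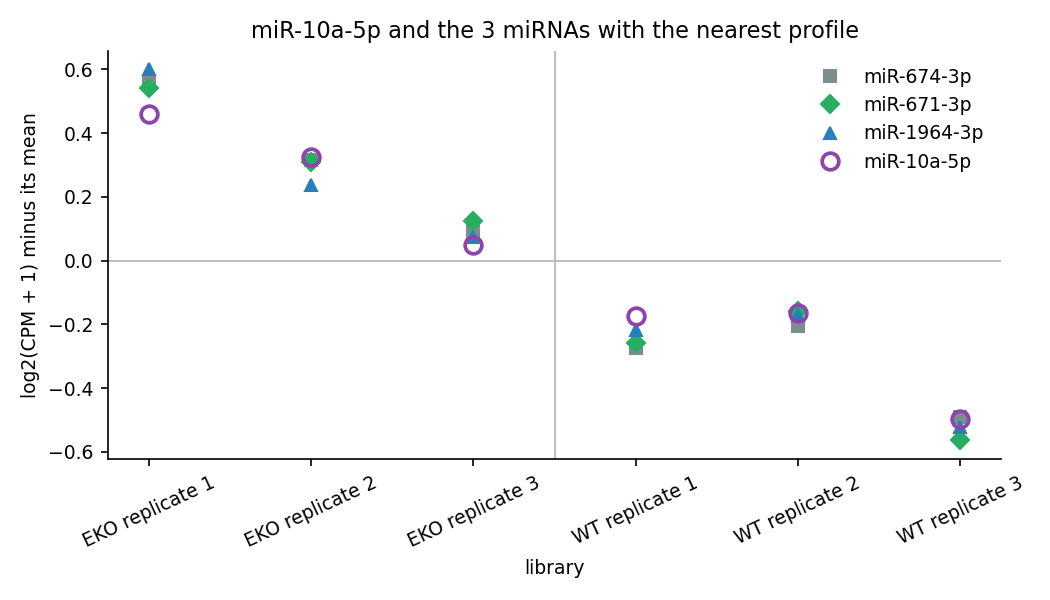
Log2(CPM + 1) minus its mean over the 6 libraries for miR-10a-5p and the 3 miRNAs nearest to it, with EKO libraries on the left and WT libraries on the right. All 4 miRNAs are highest in EKO replicate 1 and lowest in WT replicate 3.

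Levels of miRNAs that mark macrophages and other cell types, among them an epithelial list, were set beside these results. The counts without overlap in these lists stand beside 17.7% lower and 11.8% higher in EKO over the 575 entries tested. These bases are not alike, since the list counts are over all names listed, tested or not. Tested were 8 of 8 macrophage and myeloid, 6 of 8 stromal, 3 of 5 progenitor and endothelial, 4 of 5 lymphoid, 2 of 4 erythroid and 6 of 7 epithelial names. Of 8 macrophage and myeloid miRNAs all were detected, with summed levels of 143031 to 171234 CPM in EKO and 215757 to 228584 CPM in WT, mostly miR-21a-5p. The arms of miR-511, which lies in the macrophage gene Mrc1, were rare, at 0 to 0.674 CPM in EKO and 0.442 to 1.37 CPM in WT for miR-511-3p and 0.0759 to 1.62 CPM in EKO and 4.53 to 6.73 CPM in WT for miR-511-5p. Of these 8, 4 were lower in EKO with no overlap, miR-21a-5p and miR-223-3p among them, and miR-223-5p was higher. Of 8 stromal fibroblast miRNAs, 4 were lower in EKO with no overlap (miR-143-3p, miR-140-5p and both miR-199a arms) and none was higher, and the sums, at 3859 to 4077 CPM in EKO and 4006 to 4140 CPM in WT, overlapped. Of the 6 tested, 2 had a fitted change above 0 and 4 below. The lower ones included miR-199a-3p, at 0.0577 to 3.77 CPM in EKO and 7.70 to 14.2 CPM in WT. The most abundant, miR-140-3p, was at 3539 to 3852 CPM in EKO and 3487 to 3637 CPM in WT, and miR-214-3p at 0 to 2.51 CPM in EKO and 0 to 0.312 CPM in WT. Neither miR-145a arm had reads in EKO, and each had reads in 1 WT library.

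Of 5 progenitor and endothelial miRNAs other than the members, 2 were lower in EKO with no overlap, and the sums were 11279 to 14416 CPM in EKO and 13595 to 14178 CPM in WT, nearly all miR-99a-5p. The lower ones were miR-126a-3p and miR-125b-5p. The endothelial and progenitor miRNA miR-126a-3p was at 64.6 to 73.1 CPM in EKO and 76.3 to 79.5 CPM in WT. Levels of miR-125b-5p were 129 to 168 CPM in EKO and 219 to 270 CPM in WT. In EKO, miR-126a-5p and miR-130a-3p had no reads, while in WT they had reads in 1 and 2 libraries, at up to 0.468 CPM and 1.02 CPM. Lymphoid miRNAs summed to 537 to 649 CPM in EKO and 728 to 846 CPM in WT, mostly miR-181a-5p and miR-181b-5p. Of the 5, miR-181b-5p alone was lower without overlap, and none was higher. Levels of miR-150-5p overlapped, at 2.60 to 5.42 CPM in EKO and 4.60 to 5.96 CPM in WT. Erythroid miRNAs summed to 117 to 145 CPM in EKO and 127 to 160 CPM in WT. Nearly all of this was miR-486a-5p, at 112 to 139 CPM in EKO and 127 to 160 CPM in WT, which overlapped. The rare miR-451a was higher in EKO without overlap, at 1.29 to 5.92 CPM against 0 to 0.587 CPM in WT. It had reads in 1 WT library, and both miR-144 arms had no reads in any library. Epithelial miRNAs summed to 116 to 183 CPM in EKO and 147 to 159 CPM in WT, with 1 of 7 lower without overlap. The part of these cell types in the levels of miR-10a-5p and the miR-196 arms was not tested.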

How the data were processed

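Per the labels' protocols, RNA came from Qiagen RNeasy Mini columns, which can lose small RNA, and an NEB small RNA kit was used for sequencing. The submitters' processing notes name the build mm9, while aligner and counter are not stated in what was used here. Per the file headers, each deposited table holds counts of distinct read sequences and of all reads per miRNA reference, and an estimated count in which multiply matching reads are divided. The deposited barcode count, another column, was 0 throughout. The estimated counts deposited by the authors were taken to the nearest whole number, a missing reference was taken as 0, and stem-loop references (73) were left out. CPM used the total of mature reads per library. Intervals and limits from 3 reads cover counting error only.

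EKO and WT were compared with edgeR 4.0.16 in R 4.3.3 (TMM, filterByExpr, glmQLFit and glmQLFTest on genotype, Benjamini-Hochberg over all entries tested, threshold 0.05), tested on simulated data. SE is the log2 fold change divided by the square root of F. For sums and ratios an exact permutation test over libraries was used, two-sided (ratios with 0.5 reads added). Alternatives were DESeq2 1.42.0, limma-voom (limma 3.58.1), other scalings and filters, total read counts, a replicate block, and leaving out libraries. Named miRNAs are the members, 2 lists of Hox-cluster and sequence relatives, the 3 nearest profiles of miR-10a-5p and of miR-10b-5p, and markers. Marker miRNAs singled out were chosen after their values were seen, and the members and lists were chosen with earlier results of these data known. Sequences and coordinates are from RefSeq on GRCm38.p6, not the build of the counts, which carry none.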

Additional observations from a re-analysis of the deposited data

How the results depend on the processing

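Calls depended on the test and the filter. Against 0 miRNAs and 0 members called by the edgeR test, DESeq2 called 92 miRNAs and 2 members, limma-voom 32 miRNAs and 1 member, edgeR without a low-count filter 52 with 1, edgeR on entries averaging at least 10 CPM 59 with 1, and edgeR with the replicate block 62 with 1. Leaving out each library gave 0 to 45 miRNAs and 0 to 1 members, with calls only without EKO replicate 3. The log2 fold change of miR-10a-5p was 0.67 with DESeq2, 0.62 with no low-count filter, 0.62 among entries averaging at least 10 CPM and 0.59 with the replicate block (adjusted p = 0.00188, edgeR), all past the threshold, and 0.46 to 0.72 with a library left out. Over its 15 alternatives the adjusted p ranged from 0.00188 to 0.285 (edgeR, DESeq2 and limma-voom). That of miR-196a-5p was -7.66 with DESeq2 and -6.69 with limma-voom, both past the threshold, and -9.35 to -6.95 with a library left out (adjusted p from 0.000957 to 0.285 over 14 alternatives, in the same tools). Without EKO replicate 1 the log2 fold change of miR-10a-3p turned to 0.0517, and without EKO replicate 3 that of miR-10b-5p turned to -0.0328. Leaving out a library took miR-10a-3p to between -0.83 and 0.0517, miR-10b-5p to between -0.0328 and 0.54, and miR-196b-5p to between -3.93 and -2.41. The log2 arm ratio of miR-10b was set by its 5p count alone, since its 3p arm had no reads. Its difference lay between -0.148 and 0.345. This was below 0 at -0.148 when EKO replicate 3 was left out, at -0.108 for WT replicate 1 and at -0.0160 for WT replicate 3. The difference in arm ratio of miR-10a lay between 0.37 and 2.0, that of the miR-10a to miR-10b ratio between 0.11 and 0.70, that of the summed members between 4825 and 7424 CPM, and that of the summed miR-196 arms between -5.41 and -4.23 CPM. The cause of these changes was not tested. The miR-196 arms were not tested among entries averaging at least 10 CPM. The libraries share only a number: the correlations of same-numbered deviations from group means were -0.0986, -0.0349 and -0.0149 for numbers 1, 2 and 3, and no library correlated best with its own number. The miR-196 arms had at most 135 reads in a library, and a miR-10b-3p level under 3 reads was not detectable.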
